A study of Mus musculus with 89 samples.

Results

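The genes described here are 40 voltage-gated ion channel and calcium handling genes, chosen by name: pore and auxiliary subunits of calcium channels, sodium, leak and potassium channels, calcium store channels and plasma membrane calcium pumps. Their exon skipping events were read from a pair of deposited tables of mouse nucleus accumbens RNA, where each event pairs an exon and its neighbours with the reads that include or skip it. In the table of the herpes simplex virus (HSV) experiment, 35 of the genes had 183 events over 156 exons, of 27900 events in 9542 genes. In the table of the dCas9-SET2 experiment, 21 of them had 42 events over 40 exons, of 5608 events in 3434 genes. Both tables listed 20 of the genes, 36 stood in either, and Cacnb2, Kcnc4, Scn3a and Itpr3 were not analysed here.

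Calcium enters neurons through voltage-gated channels built of a pore subunit with beta and alpha2delta partners, is released from stores by ryanodine and inositol trisphosphate (IP3) receptors, and is expelled by plasma membrane pumps. Many of these genes carry short alternative exons that change gating, drug sensitivity or the binding of calmodulin and other partners. In the accumbens, a reward region made mostly of medium spiny neurons, potassium channels of the Kv4 family with their KChIP partners set firing delay, and Kv3 channels serve fast-spiking interneurons.

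The study asked how trimethylation of histone H3 at lysine 36, the mark that the methyltransferase Set2 places, bears on splicing in cocaine reward. Of its 89 samples, 9 were RNA libraries of nucleus accumbens of wild type C57BL/6 mice at 8 weeks, given HSV-GFP, HSV-Set2 or HSV-R195G (the last named for a substitution), with 3 libraries in each of 3 groups. Another 32 were RNA runs of accumbens of the same strain, genotype and age given dCas9-SET2, a catalytically dead Cas9 joined to SET2, with sgRNA-NT or sgRNA-SRSF11, in 16 runs a guide under 4 sample names of 4 runs. HSV transduces only some of the cells in a tissue punch, so each library mixes transduced cells with others.

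The HSV table groups its columns into 2 and 3 libraries, with 7428974 to 8638249 reads per library over all listed events. The dCas9-SET2 table holds 16 runs in each of its sets, with 56946 to 106251 reads per run. No column carries a name, so no virus and no guide was assigned to a set, and sets are compared as the tables group them. Nothing in the labels says that libraries came from separate animals, so p-values measure only the spread between these libraries, which may be technical. In bulk tissue, fewer cells of a type and less RNA per cell cannot be told apart. Of the medium spiny neuron markers, 11 of 14 were measured in the HSV libraries and none of them was at 0 in any library, while Adora2a and Drd1 were not.

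Coverage differed between the HSV sets for many of the channel genes. Coverage here is the reads of a gene's deepest event as counts per 1000000 reads (CPM). It is only a partial stand-in for the gene's RNA, since events of the same gene can differ. It is not scaled by length, so it is not compared between genes. Of 34 genes averaging at least 20 reads per library, 17 (50%) passed the test (limma, Benjamini-Hochberg adjusted p below 0.05), 10 higher and 7 lower in the 3-library set. In the fit that omitted library 2 of the 2-library set, the balance was 7 higher and 9 lower. Among all 8201 genes, 22.7% passed, 13.2% higher and 9.47% lower. The median log2 difference was 0.04 over the 34 genes and 0.00064 over all genes. Of the remaining 6 genes, Itpr2 had 1 event with a mean of 9.8 reads per library, Kcnc2 stood only in the dCas9-SET2 table, and 4 are those not analysed.

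Among calcium channel pores, 1 of 8 passed. Cacna1g, a T-type pore of low-voltage bursts, had 5.05 and 6.03 CPM (2-library set) against 14.5, 17.9 and 21.8 CPM (3-library set). The sets did not overlap, and the difference was 1.69 ± 0.33 (log2, SE; adjusted p = 0.00237, limma). Cacna1b, the N-type pore of presynaptic release, had a log2 difference of 0.60 that missed the threshold (adjusted p = 0.0752). The other 6 pores, of L, P/Q, R and T type, had log2 differences from -0.34 (Cacna1h) to 0.33 (Cacna1e).

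Auxiliary subunits went in both directions, with 1 of 6 higher and 3 lower. Cacna2d3, an alpha2delta subunit that promotes channel trafficking, stood at 270 and 221 CPM against 133, 120 and 108 (log2 -1.02 ± 0.13, adjusted p = 7.14e-05, limma). All 19 of its events with a mean of 20 reads were lower in the 3-library set, by -1.12 to -0.36. Cacna2d2, the alpha2delta subunit known from the cerebellum and from the ducky mouse, moved the other way, from 45.4 and 45.0 CPM to 106, 94.6 and 109 (log2 1.19 ± 0.13, adjusted p = 3.38e-05). Neither gene's libraries overlapped between the sets.

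The beta subunits, which bind the pore in the cytosol and raise its surface level, were lower in the 3-library set where they passed. Cacnb1 had 189 and 154 CPM against 93.4, 101 and 107 (log2 -0.77 ± 0.12, adjusted p = 0.000626). Cacnb4 had 149 and 108 CPM against 81.4, 82.8 and 79.1 (log2 -0.64 ± 0.14, adjusted p = 0.00581). For both, each library of the 2-library set lay above every library of the other set. In the fit that omitted library 1 of the 2-library set, Cacnb4 was no longer called (log2 -0.41, adjusted p = 0.0704). Cacnb3 stood at -0.41 and missed the threshold (adjusted p = 0.0518), and Cacna2d1 at -0.09.

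Of 3 sodium and leak channel genes, 2 were higher in the 3-library set. Scn1a, the sodium channel pore of fast-spiking inhibitory neurons, had 8.98 and 5.79 CPM against 32.3, 28.1 and 40.1 CPM. The sets were far apart, and the log2 difference of 2.20 ± 0.28, or 4.60-fold, was the largest of the 34 genes (adjusted p = 0.000112, limma). It rests on 1 listed event. Nalcn, the sodium leak channel that sets resting potential, had 54.3 and 41.8 CPM against 68.5, 76.9 and 72.2 (log2 0.61 ± 0.16, adjusted p = 0.0138). All 11 of its events were higher in the 3-library set. Its call ended when the second library of either set was left out: log2 0.42 (adjusted p = 0.0892) in the 2-library case and 0.56 (adjusted p = 0.055) in the 3-library case. Scn8a, a pore of the axon initial segment, spread from 36.7 to 70.7 CPM within the 3-library set and was not called (log2 0.26, adjusted p = 0.487).

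Among 10 potassium channel genes, 4 were higher and 1 lower. Kcnc1, a Kv3 pore of fast-spiking cells, had 150 and 120 CPM against 455, 347 and 421 CPM. The 3-library values all lay above the 2-library values, at log2 1.60 ± 0.13 (adjusted p = 2.15e-06, limma). Kcnh2, the pore of ERG channels, had 30.2 and 27.7 CPM against 70.0, 81.2 and 82.1 (log2 1.42 ± 0.16, adjusted p = 2.83e-05). Its other event with a mean of 20 reads was higher by less, at log2 0.77.

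Genes of the Kv4 complex were split. Kcnip2, a calcium-binding KChIP partner of Kv4 pores, had 227 and 182 CPM against 80.7, 78.5 and 73.0 CPM, and all 6 of its events were lower in the 3-library set (log2 -1.39 ± 0.13, adjusted p = 6.12e-06, limma). Kcnd3, a Kv4 pore, had 9.23 and 5.30 CPM against 16.4, 20.6 and 15.2 (log2 1.30 ± 0.34, adjusted p = 0.0146). This rests on 1 listed event, with 37 and 21 reads in the 2-library set. It is the 57-nt exon described below, so the coverage and inclusion values of Kcnd3 come from the same reads. For both genes the sets did not overlap. The Kcnd3 call likewise ended when the second library of either set was left out, at log2 0.90 (adjusted p = 0.0727) in the 2-library case and 1.18 (adjusted p = 0.0706) in the 3-library case. Kcnip4, another KChIP, had 2 events with a mean of 20 reads, of which the less deep stood at log2 0.10. The deepest, used for coverage, gave the smallest called difference of a gene. It had 73.0 and 58.5 CPM against 107, 86.8 and 97.1 CPM, which do not overlap (log2 0.56 ± 0.15, adjusted p = 0.0138). That call ended in the fits that omitted library 2 of the 2-library set, library 1 or library 3 of the 3-library set (adjusted p = 0.0686, 0.0699 and 0.0532), with all its events summed (0.0748) and with no trend of the spread (0.0767). Kcnip1, also a KChIP, was at 0.70 and missed the threshold (adjusted p = 0.0613), as did the M-current pores Kcnq3 at -0.66 and Kcnq5 at -0.56.

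Store channels were the group with the lowest median, at log2 -1.43 over 3 measured genes, of which 2 passed. Itpr1, the main neuronal IP3 receptor, had 516 and 380 CPM against 154, 172 and 168 CPM, and each of its 15 events was lower in the 3-library set, by -1.43 to -0.54. Its difference of -1.43 ± 0.12 passed the test (adjusted p = 3.88e-06, limma). Ryr3, a ryanodine receptor of striatum and hippocampus, fell by 1.76 ± 0.30, from 52.1 and 30.9 CPM to 15.2, 11.2 and 9.73 (adjusted p = 0.000849). The sets of both genes were apart. Ryr2, the other ryanodine receptor measured, had 9.23 and 5.30 CPM against 8.89, 11.7 and 8.36, which overlap (adjusted p = 0.463).

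The plasma membrane pumps divided by gene, with 2 of 4 higher and 1 lower. Atp2b1, the most widespread pump, had 503 and 437 CPM against 221, 238 and 219 CPM (log2 -1.06 ± 0.10, adjusted p = 6.11e-06, limma). Atp2b4 had 43.7 and 48.9 CPM against 124, 128 and 142 CPM (log2 1.50 ± 0.13, adjusted p = 3.82e-06). Atp2b3 had 51.6 and 66.6 CPM against 88.0, 86.8 and 103 (log2 0.66 ± 0.15, adjusted p = 0.00699). For these 3 pumps no value of one set fell within the other. Atp2b2, the pump with the fastest calcium clearance, overlapped, at 201 and 209 CPM against 184, 197 and 208 (log2 -0.06 ± 0.10, adjusted p = 0.705). With 1 spread for all genes in place of a trend on coverage, 13 of the 17 calls were made, and the adjusted p (limma) was 0.0567 for Atp2b3, 0.0592 for Nalcn and 0.061 for Cacnb4.

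**Figure D1:**
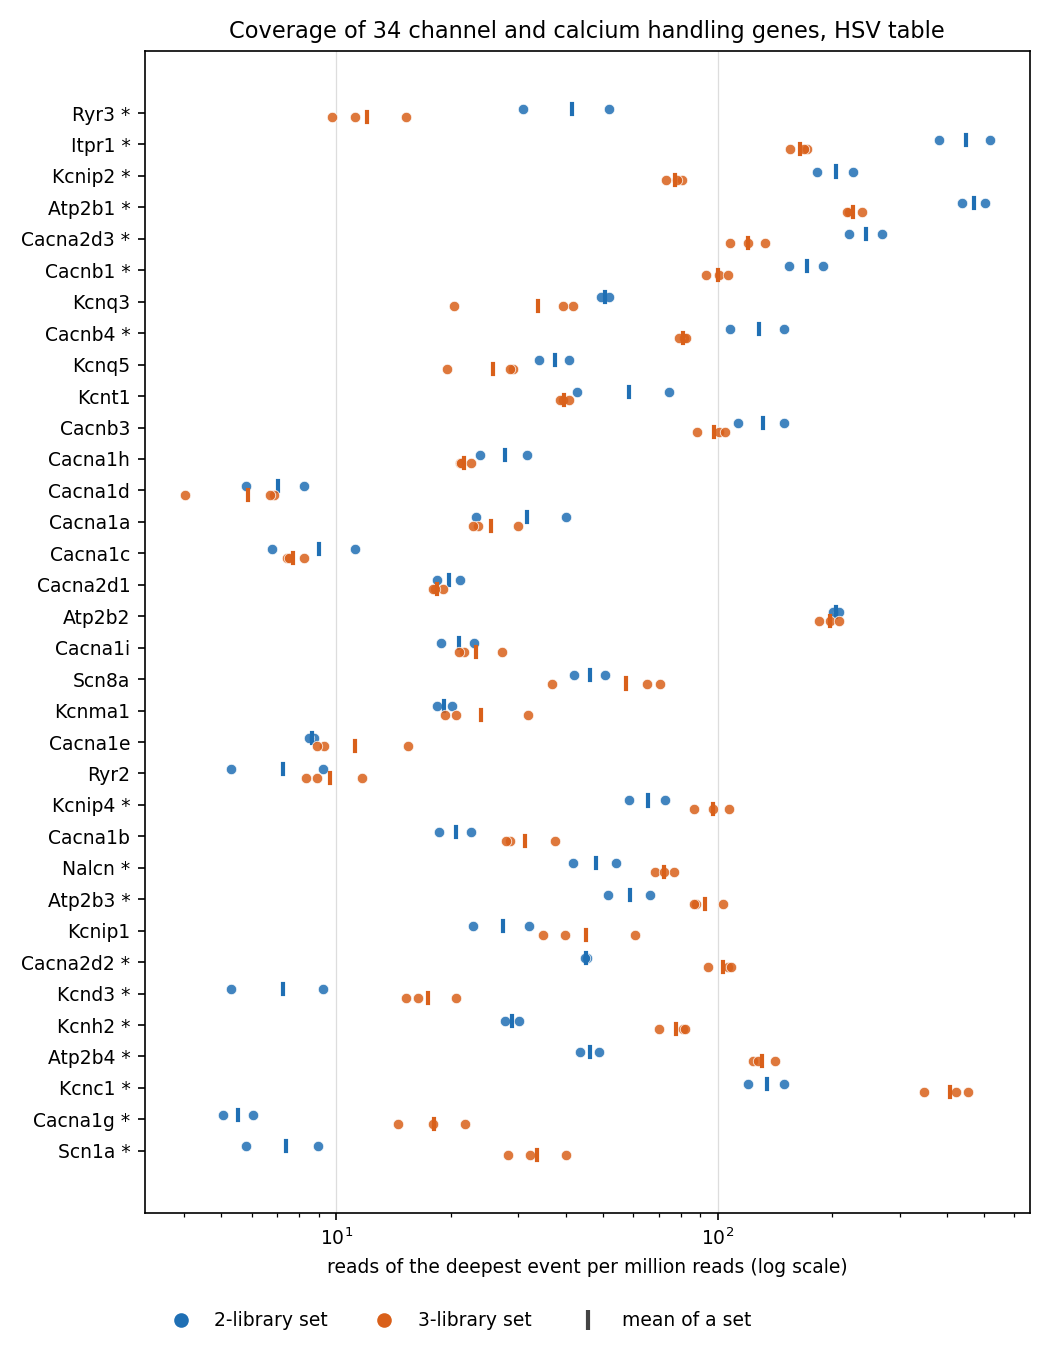
Coverage in CPM (log axis) for the 34 measured genes in each library of the HSV table, ordered by the log2 difference between the sets, with a bar at the mean of each set and an asterisk on the 17 called genes. Ryr3, Itpr1 and Kcnip2 at the top lie to the left in the 3-library set, and Scn1a, Cacna1g and Kcnc1 at the bottom lie to its right.

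Markers of cell types moved with the same sets. Of the measured medium spiny neuron markers, 10 of 11 were lower in the 3-library set and 0 higher, with a median log2 difference of -1.46. Their summed coverage was 8993 to 11050 CPM in the 2-library set and 3536 to 3762 CPM in the 3-library set. Interferon response genes went the other way: 11 of 11 measured were higher, with a median of 4.26, and their sum was 84.1 to 189 CPM against 3072 to 3470 CPM. Oligodendrocyte markers were higher for 6 of 7, microglia markers for 4 of 7 and astrocyte markers for 2 of 4, and of 5 general neuron markers 3 were higher and 2 lower. None of the 6 vascular markers was measured. The summed coverage was 6088 to 7416 against 7964 to 10378.5 CPM for oligodendrocyte, 853 to 1884 against 1951 to 2088 CPM for microglia, 1209 to 1687 against 1731 to 1910 CPM for astrocyte and 5908 to 6998 against 6684 to 7621 CPM for neuron markers. No measured marker was at 0 in any library. The part of these shifts in the channel results, of coverage and of splicing, was not tested.

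Other genes of the same pathways were counted from a list of 117, of which 64 were measured. Of these, 19 were higher, 19 lower and 26 not called, with a median log2 difference of 0.08. By family, the calls were 2 higher and 1 lower of 6 sodium channel genes, 7 and 5 of 20 potassium channel genes, 1 and 2 of 6 calcium channel genes and 3 and 0 of 5 leak and pacemaker genes. Among 27 genes of calcium stores and transport, 6 were higher and 11 lower.

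Exon inclusion was compared over the same libraries. The inclusion level (PSI) is the share of transcripts that include the exon, from inclusion and skipping reads each divided by its form length. Of the 183 events, 63.9% had a mean PSI of 0.95 or more, against 63.2% of all events in the table. The exons of the channel genes had a median length of 84 nt (all events 111 nt), and 62.8% had a length divisible by 3 (all events 44.7%), so that skipping them keeps the reading frame. For a test, an event had to average 20 reads a library and hold 10 reads of its rarer form, which 55 events in 23 of the genes did. Of these 55, 40 (72.7%) were of a length divisible by 3, against 52.8% of the 7754 tested in all.

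In the splicing test, 1 of the 55 events was called (limma on the logit of PSI, adjusted p below 0.05), in the direction of higher inclusion in the 3-library set. Over all tested events, 2.14% were called, 1.01% higher and 1.13% lower. At an unadjusted p below 0.05 stood 11 of the 55 (20%) and 12.4% of all. The authors' deposited FDR was below 0.05 for 15 of the 55 events and for 12.6% of all tested, and for 18 of the 183 listed events and 4.87% of all listed. The absolute difference of mean PSI had a median of 0.052 over the 55 events and 0.031 over all. The sets did not overlap for 17 of the 55, and for 27.8% of all tested events. Events with no reads of the rarer form in a whole set pass the read filter through the other set alone, which favours a lack of overlap.

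The called event was a 172-nt exon of Atp2b2 (chromosome 6, 113705211 to 113705382 as the table gives it, build not given in the sources used here). Plasma membrane calcium pumps are spliced at site A, in the first cytosolic loop, and at site C, in the calmodulin-binding tail, and an exon of this length is known at site C of Atp2b2, where inclusion shifts the frame and changes the tail. PSI was 0.092 and 0.112 (2-library set) against 0.198, 0.203 and 0.252 (3-library set), from 322 to 435 reads per library. Wilson 95% intervals, which like every interval and bound here cover counting error only, were 0.0736 to 0.115 and 0.0916 to 0.137 against 0.168 to 0.233, 0.169 to 0.243 and 0.217 to 0.29. All 3 libraries of the 3-library set lay above both of the other set. The difference was 0.89 ± 0.20 on the logit scale (SE; adjusted p = 0.000997, limma), while the authors' deposited table gave an FDR of 3.32e-08. In the fit that omitted library 1 of the 2-library set it was no longer called (adjusted p = 0.0653).

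Coverage of the gene, given above, overlapped between the sets. At site A, Atp2b2 has exons of 33, 60 and 42 nt that share the same skipping reads (279 and 281 against 251, 232 and 262), so these events are not independent. In these events all 3 were nearly always skipped. The 33-nt exon had PSI of 0.004 to 0.013 and the 60-nt exon 0 to 0.039. With other neighbouring exons, an event of the 33-nt exon had PSI 0.766 to 1, from 6 to 16 reads per library. An event of the 60-nt exon had 0.797 to 1, from 1 to 24 reads. With other neighbouring exons, the 42-nt exon had 3 and 4 inclusion reads in the 2-library set. In the event that shares the skipping reads above, it had 0 inclusion reads in both of those libraries. This allows a PSI of up to 0.00833 and 0.00827 for that event, and its PSI was 0.042, 0.017 and 0.054 in the 3-library set. The sets did not overlap but the event was not called (adjusted p = 0.291, limma). Its FDR in the authors' deposited table was 9.12e-05. All inclusion reads of this event came from the 3-library set, so it met the read filter through that set alone. The lack of overlap is therefore partly fixed by the filter, and no conclusion is drawn from it.

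In the other pumps no event passed. Atp2b3 had opposite signs at its known sites. Its 42-nt exon, the length of its site A exon, had PSI 0.508 and 0.518 against 0.706, 0.865 and 0.719. Its 154-nt exon, the length of its site C exon, had 0.732 and 0.794 against 0.635, 0.669 and 0.582. The sets were apart for both, with adjusted p of 0.178 and 0.418 (limma). A 138-nt exon of Atp2b4 had 0 inclusion reads in the 2-library set and PSI 0.086, 0.186 and 0.01 in the other. The 0 reads there allow a PSI of up to 0.0693 and 0.089, and only the value of 0.186 lay above both bounds. The difference of the lowest library was not detectable at this depth, and 0.086 lay between the bounds.

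Calcium channel pores had 13 tested events and 0 calls (limma), with 2 at an unadjusted p below 0.05 and 4 below an FDR of 0.05 in the authors' deposited table. A 60-nt exon of Cacna1d, an L-type pore, had PSI 0.741 and 0.877 against 0.417, 0.65 and 0.359, the largest difference of mean PSI among the 55 events. It rested on 15 to 25 reads a library, and its adjusted p was 0.348 (limma). A 12-nt exon of Cacna1b, a length known for an insert in a linker of this pore, had 0.762 and 0.844 against 0.981, 0.905 and 1. A 57-nt exon of Cacna1e, the R-type pore, had 0 skipping reads in both libraries of the 2-library set, which allows a PSI down to 0.917 and 0.853, and PSI 0.73, 0.91 and 0.79 in the other.

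The adjusted p was 0.386 for the Cacna1b exon and 0.407 for the Cacna1e exon, and neither event overlapped between the sets. All skipping reads of the Cacna1e event came from a single set, so it met the read filter through that set alone. Its lack of overlap is therefore partly fixed by the filter. The 144-nt exon of Cacna1g overlapped, with 0 and 0.229 against 0.443, 0.237 and 0.215. That event shares its skipping reads with an event of the 135-nt exon. In an untested event with other neighbouring exons, the 144-nt exon was at 1 and 1 against 1, 1 and 0.796, from 1 to 40 reads per library. A 63-nt exon of Cacna1b, a length known for an exon of its cytosolic loop, stayed low throughout, at 0.078 and 0.15 against 0.15, 0.163 and 0.168. The 36-nt exon of Cacna1a, the P/Q-type pore, was mostly included, at 0.855 to 0.977.

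Among 6 auxiliary subunit events, 0 were called (limma) and 2 stood at an unadjusted p below 0.05. A 160-nt exon of Cacnb4 had PSI 0.315 and 0.178 against 0.492, 0.492 and 0.428, from 56 to 80 reads per library. The sets were apart, at an adjusted p of 0.18. A 21-nt exon of Cacna2d2, a gene with a called rise in coverage, had 0.221 and 0.166 against 0.213, 0.146 and 0.139, which overlap. The 18-nt exon of Cacna2d3 also overlapped, at 0.892 and 0.856 against 0.819, 0.79 and 0.885. In an untested event with other neighbouring exons, it was at 0.975 and 1 against 1, 1 and 0.954, from 15 to 44 reads per library.

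The 3 tested events of sodium and leak channels had 0 calls (limma) and 0 at an unadjusted p below 0.05. The 75-nt exon of Nalcn was at 0.775 and 0.747 against 0.779, 0.809 and 0.849.

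Of 16 potassium channel events, 0 were called (limma) and 2 stood at an unadjusted p below 0.05. A 57-nt exon of Kcnd3, the length of the known insert in the cytosolic tail of this Kv4 pore, had PSI 0.258 and 0.308 against 0.581, 0.655 and 0.559. The sets lay far apart, but with 21 to 76 reads per library the adjusted p was 0.143 (limma), and the authors' deposited table gave an FDR of 0.000991. A 63-nt exon of Kcnt1, a sodium-activated potassium channel, was included nearly always, at 0.991 and 0.992 against 0.948, 0.941 and 0.862 (adjusted p = 0.146).

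The exons of Kcnma1, the BK channel gated by calcium and voltage, rested on few reads. Its 29-nt exon had PSI 0.418 and 0.427 against 0.11, 0.074 and 0.311, from 13 to 31 reads per library. The same exon with other neighbouring exons gave 0.358 and 0.127 against 0.236, 0.528 and 0.081, which overlap. Its 9-nt exon had 0.086 and 0 against 0.032, 0.274 and 0.485, and its 12-nt exon 0.573 and 0.533 against 0.388, 0.649 and 0.388. No Kcnma1 event was called, and the 9-nt and 12-nt exons overlapped between the sets.

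No KChIP exon was called. The 33-nt exon of Kcnip1, the length of an exon in its variable amino-terminal part, had 0.428 and 0.376 against 0.475, 0.556 and 0.559 (adjusted p = 0.433). In an untested event with other neighbouring exons, it had 0.766 and 1 against 0.686, 0.766 and 1, which overlap, from 5 to 25 reads per library. Kcnip2 had 4 tested events, of which those of 908, 54 and 96 nt share skipping reads, and the 908-nt form spans both short exons and the sequence between them. Their PSI values were 0.754 to 0.958 over the libraries and overlapped between the sets.

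Store channels had 4 tested events and 0 calls (limma), with 2 at an unadjusted p below 0.05, both of Itpr1. Its 45-nt exon, the length of the known insert in the IP3-binding part, had PSI 0.994 and 0.984 against 0.949, 0.915 and 0.907. The sets did not overlap, and the event just missed the threshold (adjusted p = 0.0648, limma), with an FDR of 5.65e-06 in the authors' deposited table. It rested on 2 and 5 skipping reads against 8, 14 and 14. The 51-nt exon of Itpr1 overlapped, at 0.974 and 0.958 against 0.797, 0.972 and 0.882 (adjusted p = 0.0985). In a deeper event with other neighbouring exons, which was not tested, the same exon stood at 0.997 and 0.997 against 1, 0.992 and 1. Both Ryr3 events overlapped.

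**Figure D2:**
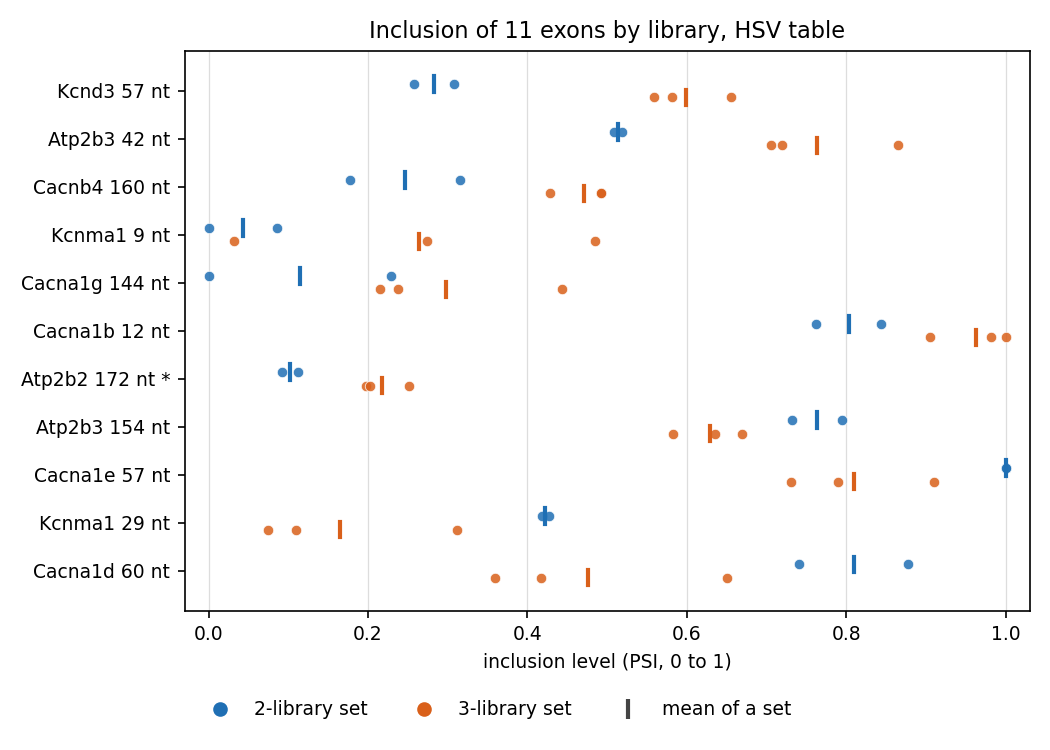
Inclusion level per library of the 1 called exon event (asterisk) and of the 10 uncalled events with the largest difference of mean inclusion, with a bar at the mean of each set. The Atp2b2 exon lies at 0.092 and 0.112 against 0.198 to 0.252, and the Kcnma1 9-nt and Cacna1g 144-nt exons overlap between the sets.

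**Figure D3:**
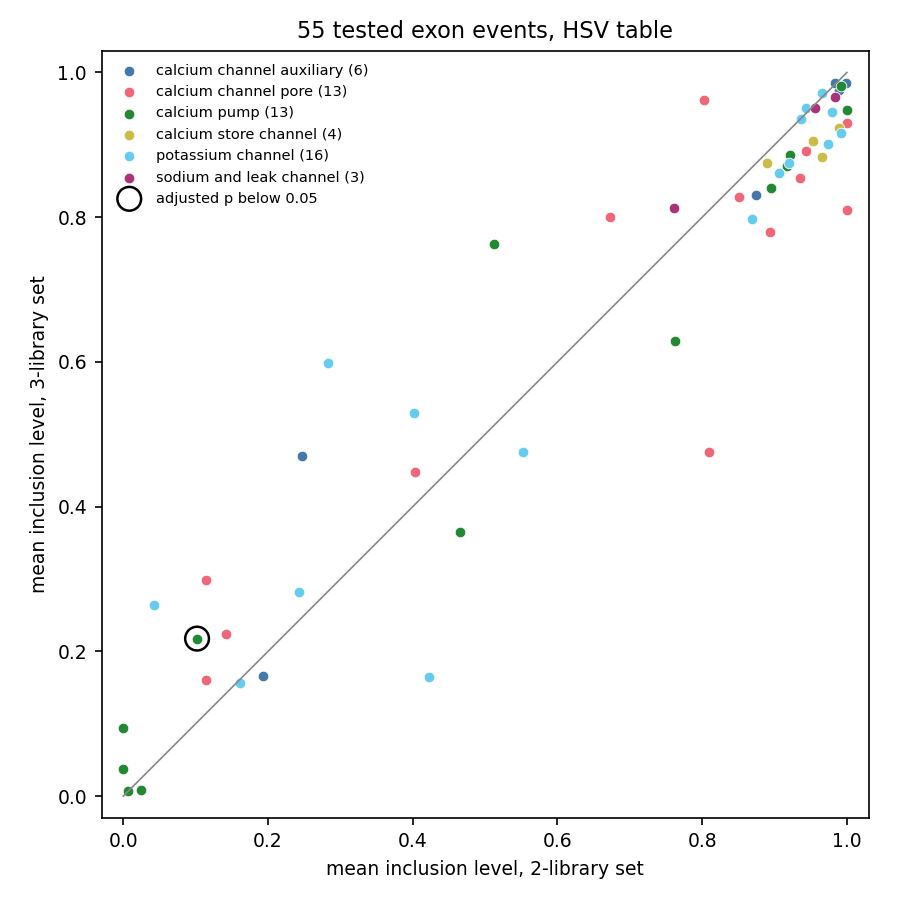
Mean inclusion level of each of the 55 tested events in the 2-library set (x axis) and the 3-library set (y axis), coloured by gene class with the number of events, with the line of equality and a ring around the called event. Of the 55, 20 lie above the line and 35 below it, against 3696 higher and 4042 lower among all tested events.

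Of the other pathway genes, 33 had 64 tested events, of which 5 (7.81%) were called, 1 higher and 4 lower in the 3-library set. The list's potassium channel genes held 3 lower calls of 13 events. Its leak and pacemaker genes held 1 lower call of 5, its store and transport genes 1 higher call of 41, and its sodium and calcium channel genes 0 of 2 and 0 of 3.

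In the dCas9-SET2 table the authors' deposited padj was below 0.05 for 1 of the 40 channel gene events that had one, against 4.96% of the 5287 events with one in the table. The runs behind this value are not independent replicates, since 4 runs share a sample name. The median event of the channel genes had 199.5 reads over both sets of runs, and 25 events in 16 genes had at least 50 reads in each set. Over these 25, the pooled PSI (all runs of a set summed) differed by a median of 0.027 in absolute value, with 8 higher and 17 lower in the second set, against a median of 0.031, 1602 higher and 1576 lower for all 3180 such events. Some of the 25 are nested and share skipping reads, such as those of Kcnip2 and Atp2b4. The pooled difference and the authors' deposited difference (dPSI) had opposite signs for 6 of the 25 and for 653 of the 3180.

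The event below the threshold was the 12-nt exon of Cacna1b, with a dPSI of -0.615 and padj of 0.0327 in the authors' deposited table. Its reads went the other way: 29 included and 2 skipped the exon in the first set, and 12 and 0 in the second. Pooled PSI was 0.928 (Wilson 95% interval 0.773 to 0.98) in the first set and 1 in the second, where 0 skipping reads allow a PSI down to 0.781. No reads fell on the exon in 2 of 16 runs of the first set and in 9 of 16 of the second. Taking those runs as PSI 0 gives means over runs of 0.83 and 0.438, a smaller difference than the deposited dPSI. The cause of the opposite signs was not tested. The intervals of the pooled values overlap.

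Events with more reads were read in pumps, KChIP and calcium channel genes. The pump Atp2b1 had its 154-nt exon, a length known at its site C, at pooled PSI 0.851 in the first set and 0.871 in the second (padj 0.524), from 907 and 674 reads. The shorter form of the same exon, 87 nt, was at 0.793 and 0.818. The nested 191-nt and 181-nt forms of Atp2b4 stood at 0.865 and 0.811, and at 0.888 and 0.836. No padj of these 4 events in the authors' deposited table passed the threshold.

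The 908-nt form of Kcnip2 had the most reads, 1486 and 1259, and a pooled PSI of 0.986 and 0.918 (padj 0.237 in the authors' deposited table). Only 2 and 11 of those reads skipped it, and the 96-nt exon nested in it shares them, at 0.989 and 0.93. The 54-nt exon was at 0.973 and 0.972. Itpr1 had its 45-nt exon at 0.972 and 0.933, Cacnb1 its 20-nt exon at 0.962 and 0.988, and Kcnt1 its 63-nt exon at 0.944 in both sets. Single runs ranged widely around these values, for Itpr1 from 0.783 to 1 in the first set and from 0.598 to 1 in the second.

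**Figure D4:**
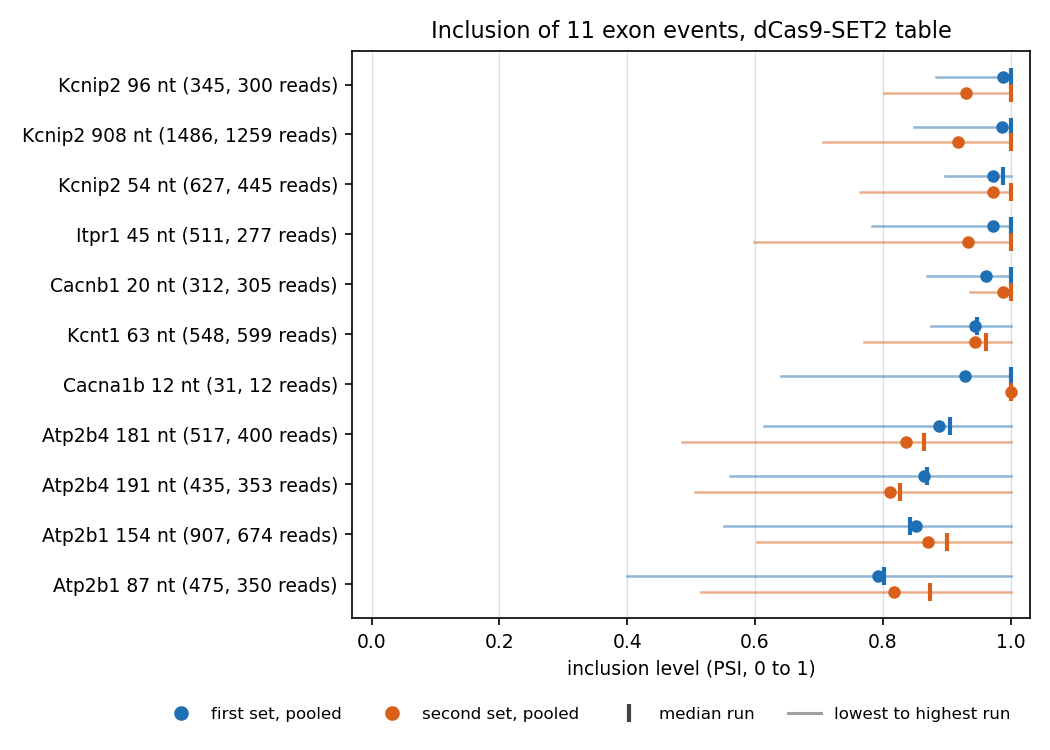
Pooled inclusion level (dot), median run (bar) and range over runs (line) in the first and second set of the dCas9-SET2 table for the 10 channel gene events with the most reads and the Cacna1b 12-nt exon, with the reads of each set. The ranges over runs of the sets overlap for all 11 events.

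Exons whose length was held by a single event of the gene in each table were set side by side, in 23 cases over 16 genes. Lengths held by several events of a gene in either table were left out. The exons were matched by length only, and the tables were made separately, so the values are not tested. The Kcnd3 57-nt exon was at 0.258 and 0.308 against 0.559 to 0.655 in the HSV sets, and at a pooled 0.502 and 0.599 in the sets of runs. Its means over runs were 0.594 and 0.606. The authors' deposited dPSI had the opposite sign to the pooled values, at -0.0155 (padj 0.937 in the authors' deposited table). The Cacnb4 160-nt exon was at 0.178 and 0.315 against 0.428 to 0.492, and at 0.28 and 0.266. In both exons the values of the sets of runs lay within the whole range of the HSV libraries.

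For Atp2b3 the 154-nt exon was at 0.732 and 0.794 against 0.582 to 0.669 in the HSV sets, and at 0.614 and 0.633 in the sets of runs. The 45-nt exon of Itpr1 was at 0.984 and 0.994 against 0.907 to 0.949, and at 0.972 and 0.933 in the sets of runs, where the pooled intervals overlap. The 21-nt exon of Cacna2d2 was at 0.166 and 0.221 against 0.139 to 0.213, and at 0.108 and 0.242. Kcnc2, a Kv3 pore, stood only in the dCas9-SET2 table, with a 104-nt exon at 0.125 and 0.0703.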

How the data were processed

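The 40 genes, the lists of other genes and the tests were chosen with earlier results of these data known. The submitters' processing notes name the builds mm9 and mm10, Bowtie2 and STAR 2.4.1d without saying what each was for. Which event caller was run is not given in the sources used. The deposited tables hold whole-number reads and inclusion levels joined by commas within cells, with 5 unnamed HSV columns and 32 unnamed dCas9-SET2 columns. The deposited inclusion levels were recomputed from the reads and form lengths for 100% of values within 0.001. The p-value and FDR (HSV) and the padj (dCas9-SET2) are the authors' deposited values, from tests not stated there. The deposited difference score of the HSV table is the 2-library minus the 3-library set, and is reversed here. The dPSI score deposited by the authors is the second minus the first set of runs.

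Of the HSV gene IDs, 9430 of 9542 matched a symbol. Genes were not taken from coordinates. The logit of inclusion, with 0.5 added to each read count, was fitted with limma 3.58.1 (R 4.3.3), weighted by the reads behind it. The spread was trended on those effective reads, a choice made after a test on simulated data with no difference between the sets. Coverage used TMM factors (trims 0.3 and 0.05) and limma on log2 values with 0.5 added, so folds of genes with few reads are understated. All tests are two-sided and adjusted over all features of a table with Benjamini-Hochberg.

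Named were every called event, the 10 uncalled events with the largest difference of mean inclusion, the 16 largest called coverage differences, the dCas9-SET2 events with authors' padj below 0.05 or the 10 with most reads, and genes in both tables. Other events named were chosen after their values were seen. Intervals are Wilson 95%, carried to the inclusion scale, and a count of 0 is bounded with 3 reads. A count model was not fitted because reads stand joined in cells. The other 48 samples were not analysed here. Some events and markers of the lists are not reported here by name.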

Additional observations from a re-analysis of the deposited data

How the results depend on the processing

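The count of called channel gene events in the HSV table was 1 in the limma fit as reported and with robust moderation or a filter of 10 and 5 reads. It was 2 with 1 spread shared by all events, with no precision weights, with a filter of 50 and 25 reads, with 1 added to each count and with the spread trended on total reads (an alternative added after seeing the data), and 0 to 1 with a library left out. By the authors' deposited FDR it was 15, and 18 when every listed event was taken, also an alternative chosen after seeing the data. Over all events the 166 calls became 286 with 1 shared spread, 276 with the trend on total reads, 974 by the authors' deposited FDR and 79 to 128 with a library left out. In coverage, the 1858 calls over all genes became 1181 with no trend of the spread. The 17 calls of the channel genes stayed between 13 and 19 in every alternative, with 10 higher and 7 lower as reported 9 and 10 when all listed events of a gene were summed, and 7 and 9 when replicate 2 of the 2-library set was left out. In the dCas9-SET2 table, the 1 event became 0 at a padj below 0.01 and 0 among events with 50 reads in each set. The cause was not tested for any of these changes. None of the 17 coverage differences and 11 exon events refitted under the alternatives changed sign, and other differences named in the text were not refitted singly. No scaling moved the median of all genes by more than 0.033 (log2). No paired analysis was possible because the columns carry no replicate numbers. Few skipping or inclusion reads limit most channel exons, so an event not called is not shown to be unchanged.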

Other observations

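Of the 183 HSV events of the channel genes, 128 were not tested: 20 averaged under 20 reads per library, and 108 had more but under 10 reads of the rarer form. Of the 128, 3 had an FDR below 0.05 in the authors' deposited table. They were chosen here after their values were seen. Atp2b2 held 2 of them. Its 60-nt exon, with neighbours other than those above, had PSI 1 and 1 against 0.3, 0.349 and 0.099, from 1 and 2 reads in the 2-library set and 7 to 15 in the other. Its 42-nt exon, in the event with other neighbours mentioned above, had 0.115 and 0.258 against 0.566, 1 and 0.845, from 6 to 24 reads per library. A 54-nt exon of the T-type pore Cacna1g had 1 and 1 against 0.469, 0.595 and 1, from 2 to 11 reads. Each of these rests on a handful of reads in at least 1 library.

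Among the other pathway genes, a pair of events called in the HSV splicing test (limma) are named after their values were seen. Unc80, a partner of the leak channel Nalcn, had a 57-nt exon at PSI 0.951 and 0.924 against 0.789, 0.712 and 0.761 (adjusted p = 0.0261). Micu3, a regulator of mitochondrial calcium uptake, went the other way with a 39-nt exon at 0.405 and 0.255 against 0.581, 0.564 and 0.655 (adjusted p = 0.000425). Neither event overlapped between the sets.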
